A study of Mus musculus with 10 samples.

Results

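The vascular endothelial growth factor (VEGF) family was followed through RNA-seq of primary differentiated adipocytes. It comprised the 10 genes of the deposited count table whose symbol was that of a VEGF ligand (Vegfa, Vegfb, Vegfc, Vegfd and Pgf), a VEGF receptor kinase (Flt1, Kdr and Flt4) or a neuropilin co-receptor (Nrp1 and Nrp2). These were 10 of 56748 genes, each held 1 row of the table, and all 10 had enough counts to be tested among 14270 genes. The data covered 5 control libraries from Fam20c-flox mice and 5 KO libraries from Fam20c-flox/Adipoq-Cre mice, in which the adiponectin promoter drives Cre in adipocytes. Both groups carried the floxed Fam20c allele, and the controls carried no Cre. Cells came from the inguinal stromal vascular fraction (SVF) of male mice 6 to 8 weeks old, on a C57BL/6J background after at least 5 backcrosses, and both groups were differentiated for 6 to 8 days. The differentiation mix held IBMX, dexamethasone, insulin and rosiglitazone. The methods describe no sorting, so the cultures may hold other SVF cells beside adipocytes.

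VEGF ligands are secreted dimers that bind receptor tyrosine kinases, chiefly on endothelial cells. VEGF-A acts through VEGFR2 (Kdr), the main receptor for blood vessel growth, and binds more tightly to VEGFR1 (Flt1), which also exists as a soluble decoy. Among the receptor kinases, PlGF (Pgf) and VEGF-B bind VEGFR1 only. VEGF-C and VEGF-D bind VEGFR3 (Flt4), the receptor for lymphatic growth, and neuropilins hold ligands for the kinases. Adipocytes are a known source of VEGF-A in fat, where capillaries grow with the tissue. The comparison of KO with control asked whether loss of Fam20c, a kinase of the secretory pathway, from adipocytes went with a change in the ligands, in the receptors or in both.

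Total counts ranged from 18949106 to 26237825 in control and from 19883101 to 23291792 in KO libraries. Values are counts scaled to a common library size (CPM) by the TMM method of edgeR, and libraries of a group differed by more than sampling noise. Fam20c fell from 10.2 ± 1.29 CPM (SD, n = 5) in control to 7.30 ± 0.45 CPM (SD, n = 5) in KO libraries, which did not overlap (log2 fold change -0.49, adjusted p = 0.0137 by the quasi-likelihood test of edgeR, Benjamini-Hochberg adjusted). Its counts cover all exons, floxed or not. Of 13 adipocyte markers 0 passed the test, but their summed level was 43740 to 45160 CPM in control and 45690 to 47500 CPM in KO libraries, so every KO library lay above every control. Nothing in the labels says that the libraries of a group came from separate animals, so p-values measure the spread between these libraries. Control library 4 and KO library 1 stood apart from the rest of their groups in several members, and results that touch them are given with and without both.

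In KO cultures the kinases Kdr and Flt4 fell, to 55.7% and 47.5% of control, while 0 of 5 ligands and 0 of 2 co-receptors passed the test. Of the 14270 genes tested, 1.86% were lower and 0.308% were higher in KO at an adjusted p limit of 0.05 (quasi-likelihood test of edgeR, Benjamini-Hochberg adjusted). Among the members, 2 of 10 were lower and 0 were higher. The median log2 fold change was -0.85 over the 3 kinases, -0.05 over the 5 ligands and -0.02 over the 2 co-receptors, against 0.00 over all genes tested. All 3 kinases had an unadjusted p under 0.05, as had 0 of the 7 other members and 1697 of all genes tested. The CPM of the groups did not overlap for Kdr and Flt4, both lower in KO, which was so for 2.66% of the genes tested.

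**Figure D1:**
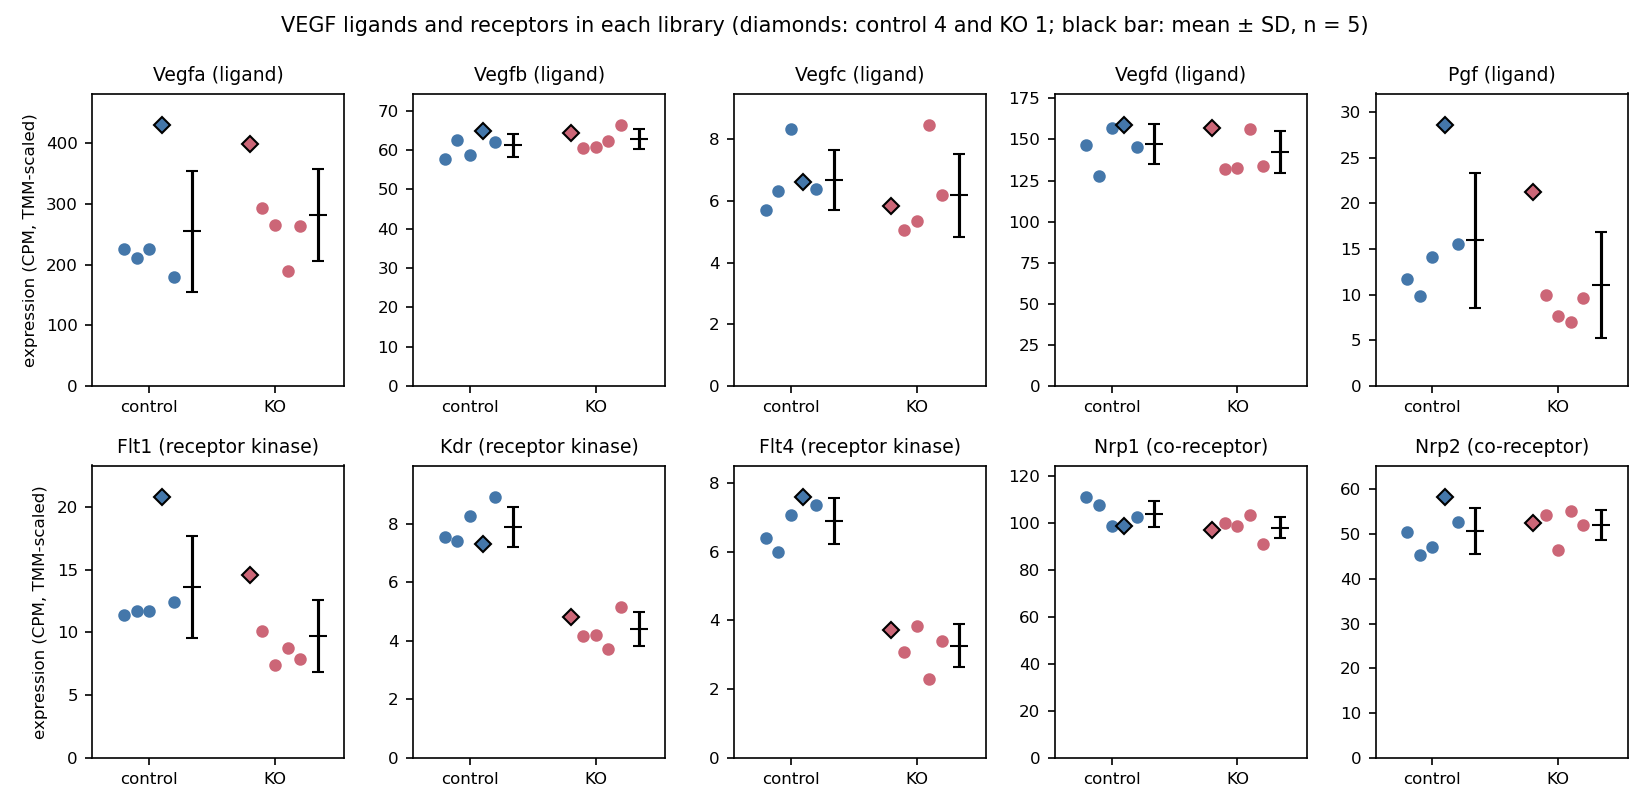
Expression of each VEGF ligand and receptor in CPM (vertical axes, each from 0) in the 5 control and 5 KO libraries. Points are libraries, diamonds are control 4 and KO 1, and black bars are the mean ± SD; the KO points lie below all control points in the panels of Kdr and Flt4.

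Among the ligands, Vegfa, the main angiogenic ligand, varied more between libraries than between genotypes. Vegfa (ENSMUSG00000023951.19; chromosome 17, 46016993 to 46032369, minus strand) measured 226.0, 210.1, 226.2, 430.2 and 180.0 CPM across controls 1 to 5. The KO libraries 1 to 5 had 398.7, 292.4, 264.6, 189.1 and 263.1 CPM. Control 4 and KO 1 were the highest of their groups, and the remaining libraries of each group overlapped with those of the other. The log2 fold change was 0.15 (SE 0.23, 95% interval -0.35 to 0.64, adjusted p = 0.894 by the quasi-likelihood test of edgeR). Without control 4 and KO 1 it was 0.26 (SE 0.114, adjusted p = 0.287, same test). The interval holds both a fall and a rise of moderate size, so a change of Vegfa within it was not detectable here.

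Pgf, the ligand of VEGFR1, had the same pair of high libraries. Pgf (chromosome 12, 85166635 to 85177790, minus strand) measured 11.7, 9.86, 14.1, 28.6 and 15.6 CPM across controls 1 to 5. The KO libraries, in the same order, measured 21.2, 10.0, 7.68, 6.96 and 9.62 CPM. Control 4 was highest of the controls and KO 1 highest of the KO libraries, where it exceeded 4 of the 5 controls. The log2 fold change was -0.53 (95% interval -1.24 to 0.19, adjusted p = 0.603 by the quasi-likelihood test of edgeR). Without both libraries it was -0.58 (SE 0.153), and the adjusted p of 0.066 from the same test still missed the limit. It was -0.21 without control 4 alone and -0.89 without KO 1 alone.

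Of the other ligands, Vegfb and Vegfd were even across libraries, and Vegfc varied more for its level. Vegfb, a VEGFR1 ligand associated with fatty acid uptake by endothelium (chromosome 19, 6982473 to 6987651, minus strand), ranged from 57.8 to 64.9 CPM in control and from 60.5 to 66.4 CPM in KO libraries. Its log2 fold change of 0.04 had a 95% interval of -0.06 to 0.14, the narrowest of the ligands. Vegfd, a lymphangiogenic ligand (chromosome X, 164373378 to 164402650, plus strand), ranged from 127.9 to 158.9 CPM in control and from 132.1 to 157.1 CPM in KO libraries. Its log2 fold change was -0.05 (95% interval -0.20 to 0.11). Vegfc, the chief ligand of lymphatic sprouting (chromosome 8, 54077606 to 54187096, plus strand), was low, at 5.72 to 8.32 CPM in control and 5.05 to 8.47 CPM in KO libraries. Its log2 fold change was -0.11 (95% interval -0.42 to 0.20). None of these 3 ligands passed the test, with adjusted p of 0.839 for Vegfb, 0.886 for Vegfd and 0.866 for Vegfc by the quasi-likelihood test of edgeR.

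**Figure D2:**
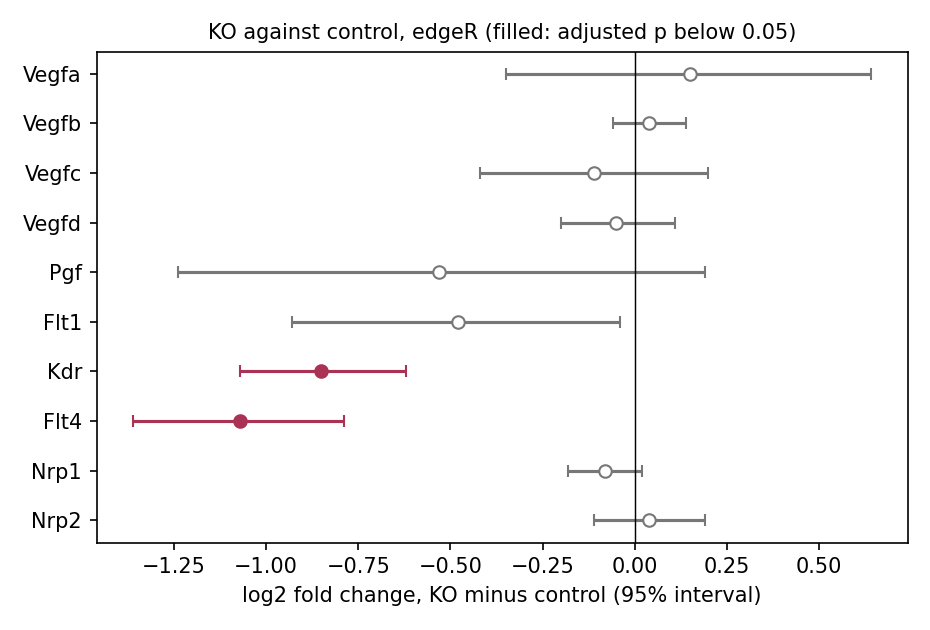
Log2 fold change of each member, KO minus control (horizontal axis), with its 95% interval from edgeR; n = 5 libraries per group. Filled points passed an adjusted p of 0.05, and these are Kdr at -0.85 and Flt4 at -1.07, while the intervals of all 5 ligands cross 0.

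Kdr encodes VEGFR2, which carries most of the mitogenic signal of VEGF-A. Kdr (ENSMUSG00000062960.11; chromosome 5, 75932827 to 75978458, minus strand) measured 7.55, 7.42, 8.28, 7.30 and 8.92 CPM across controls 1 to 5. Across KO 1 to 5 it measured 4.81, 4.17, 4.19, 3.71 and 5.14 CPM. Every KO library lay below every control library, and neither control 4 nor KO 1 was the highest of its group. The mean fell from 7.89 ± 0.687 to 4.40 ± 0.568 CPM (SD, n = 5 each), to 55.7% of control. The log2 fold change was -0.85 (SE 0.103, 95% interval -1.07 to -0.62, adjusted p = 0.000733 by the quasi-likelihood test of edgeR), which ranked Kdr 40 among the genes tested. The value rests on 81 to 211 counts a library. Without control 4 and KO 1 the log2 fold change was -0.90 (adjusted p = 0.00101, same test).

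Flt4 encodes VEGFR3, the receptor of VEGF-C and VEGF-D, which lymphatic endothelium and sprouting blood capillaries use. Flt4 (ENSMUSG00000020357.4; chromosome 11, 49609263 to 49652739, plus strand) measured 6.40, 6.00, 7.05, 7.59 and 7.36 CPM across controls 1 to 5. The KO libraries 1 to 5 measured 3.72, 3.07, 3.84, 2.29 and 3.41 CPM. The groups did not overlap, and KO 4 was the lowest library. The mean fell from 6.88 ± 0.665 to 3.27 ± 0.622 CPM (SD, n = 5 each), to 47.5% of control. The log2 fold change was -1.07 (SE 0.132, 95% interval -1.36 to -0.79, adjusted p = 0.000782 by the quasi-likelihood test of edgeR, rank 43), on 50 to 174 counts a library. Without control 4 and KO 1 it was -1.08 (adjusted p = 0.00141, same test).

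Flt1 encodes VEGFR1, a weak kinase and, in its soluble form, a decoy for VEGF-A, and the counts do not separate the forms. Flt1 (ENSMUSG00000029648.14; chromosome 5, 147561604 to 147726011, minus strand) measured 11.4, 11.7, 11.7, 20.8 and 12.4 CPM across controls 1 to 5. KO libraries 1 to 5 had 14.5, 10.1, 7.42, 8.75 and 7.89 CPM. KO 1 lay above 4 of the 5 controls, while the other 4 KO libraries lay below every control. The log2 fold change was -0.48 (SE 0.206, 95% interval -0.93 to -0.04), with an adjusted p of 0.365 by the quasi-likelihood test of edgeR, so Flt1 did not pass. With control 4 and KO 1 both left out, the log2 fold change was -0.47 (SE 0.0948), and the adjusted p of 0.0183 from the same test passed the limit. Both libraries left out were the highest of their groups for Flt1, so this pass is not independent of the values compared. The value depended on which library was kept, since it was -0.28 without control 4 alone (adjusted p = 0.436) and -0.67 without KO 1 alone (adjusted p = 0.0935), both by the edgeR test. In the fit without both libraries, 2.46% of 14340 genes were lower, and all 3 kinases were among them.

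Neuropilins also serve class 3 semaphorins in guidance, and stromal cells and neurons express them as well as endothelium. Nrp1, a co-receptor of VEGF-A (chromosome 8, 128358604 to 128503363, plus strand), ranged from 98.6 to 111.0 CPM in control and from 91.0 to 103.1 CPM in KO libraries. Its log2 fold change was -0.08 (95% interval -0.18 to 0.02, adjusted p = 0.555 by the quasi-likelihood test of edgeR). Its exons share 80 bases with Mir1903, so a few fragments may be assigned to either. Nrp2, the co-receptor of lymphatic VEGF signalling (chromosome 1, 62703285 to 62818695, plus strand), ranged from 45.2 to 58.3 CPM in control and from 46.4 to 55.1 CPM in KO libraries. Its log2 fold change was 0.04 (95% interval -0.11 to 0.19, adjusted p = 0.917, same test). The intervals of both neuropilins lie far above the values of Kdr and Flt4.

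**Figure D3:**
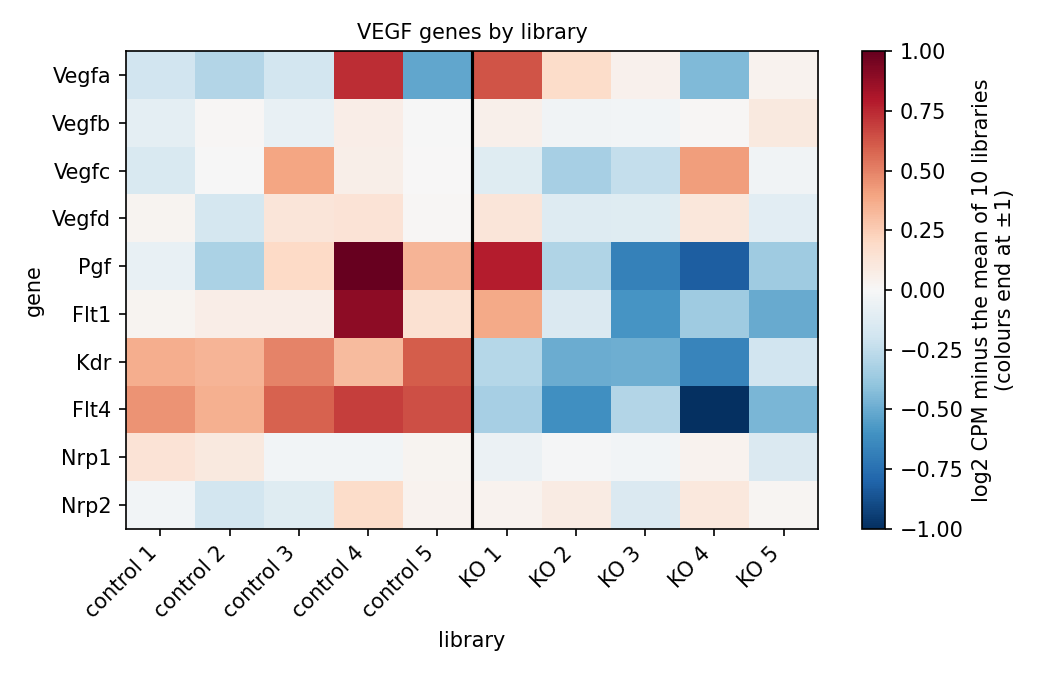
Log2 CPM of each member in each library, with the mean of the 10 libraries subtracted (colour scale, ending at ±1; rows are genes, columns libraries, the line parts control from KO). Kdr and Flt4 are above their mean in all 5 control libraries and below it in all 5 KO libraries, while Vegfa, Pgf and Flt1 are high in control 4 and KO 1.

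Levels of different genes were compared per length, as TPM (counts per kilobase of exon, scaled to a common total per library) from the exon lengths of GENCODE M21. In control libraries the order by mean was Vegfd (200.8 ± 14.2 TPM), Vegfa (194.0 ± 71.0), Vegfb (125.4 ± 6.36), Nrp1 (34.9 ± 2.41), Pgf (18.0 ± 7.92), Nrp2 (14.1 ± 1.33), Vegfc (8.95 ± 1.21), Flt1 (3.30 ± 0.904), Kdr (2.88 ± 0.307) and Flt4 (2.75 ± 0.257 TPM; SD, n = 5 for each). Neighbours in this order overlapped between libraries only for Vegfd with Vegfa, Pgf with Nrp2, Flt1 with Kdr and Kdr with Flt4. The 3 kinases were thus the least abundant members, and the 3 most abundant were ligands. In each library the ligands summed to 488.5 to 697.8 TPM in control and 514.0 to 654.6 TPM in KO. The kinases summed to 8.03 to 10.4 TPM in control and 4.52 to 6.48 TPM in KO libraries, with no overlap. The neuropilins summed to 45.5 to 51.5 TPM in control and 43.7 to 51.4 TPM in KO libraries.

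**Figure D4:**
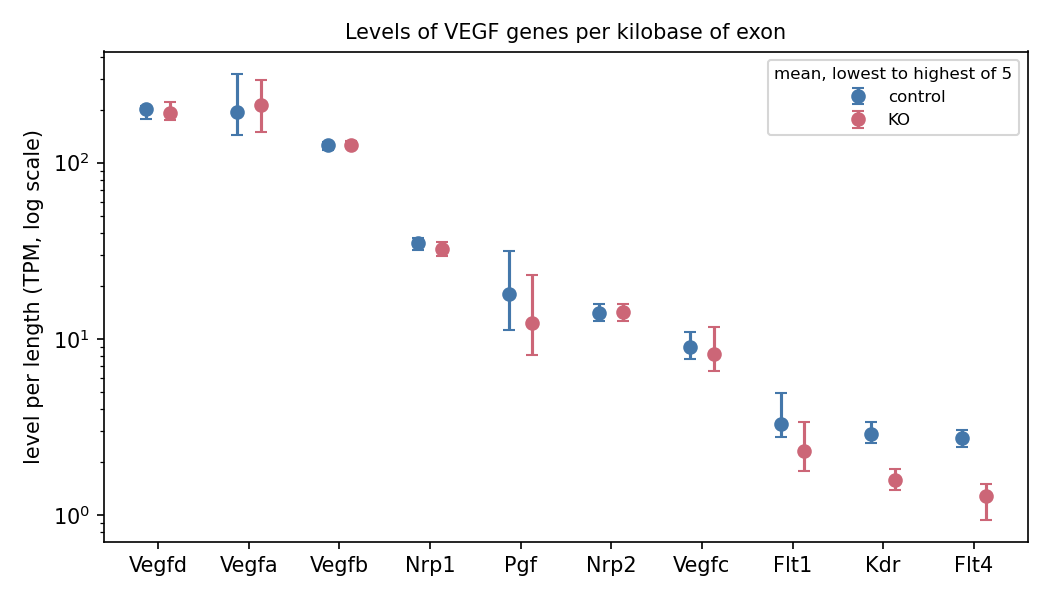
Level of each member per kilobase of exon in TPM (vertical axis, log scale), ordered by the control mean. Points are means and bars run from the lowest to the highest of 5 libraries per group; ligands such as Vegfd at 200.8 TPM stand above the kinases, and the bars of Kdr and Flt4 do not overlap between the groups.

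Ratios of members within a library asked whether members changed unequally, in 6 ratios with 2-sided exact permutation tests over 252 assignments, whose smallest p is 0.00794. The log2 ratio of Nrp1 to Kdr rose from 3.70 ± 0.16 in control to 4.45 ± 0.246 in KO (SD, n = 5 each; exact permutation test p = 0.00794, adjusted over 6 ratios 0.0476), and it was higher in 5 of 5 KO libraries than in every control. The log2 ratio of Kdr to Vegfa was -4.93 ± 0.568 in control and -5.94 ± 0.302 in KO (exact permutation test p = 0.0238, adjusted 0.0714), which missed the limit after adjustment. It was lower than every control in 3 of 5 KO libraries. Per length, Vegfa stood at 42.5 to 124.2 times Kdr in control and 107.4 to 174.6 times Kdr in KO libraries. For Flt4 to Kdr the log2 ratio differed by -0.24 (exact permutation test p = 0.0873, adjusted 0.175), and for Flt1 to Kdr by 0.35 (exact permutation test p = 0.198, adjusted 0.276). The 2 ratios that join co-receptors or ligands, Nrp2 to Nrp1 and Vegfb to Vegfa, differed by 0.12 and -0.14 (exact permutation tests, adjusted 0.276 and 0.595).

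The kinases are typical of endothelium, and the markers of blood endothelium moved with them. Of 26 such markers, 22 were lower and 0 higher in KO, where 1.86% of all genes tested were lower and 0.308% higher. Their median log2 fold change was -1.22, and none was at 0. Their summed level was 244.5 to 290.3 CPM in control against 109.6 to 149.5 CPM in KO libraries. In bulk RNA, fewer endothelial cells and less of these transcripts per cell cannot be told apart, and this holds for Kdr and Flt4 too. Of 5 tested lymphatic markers, 1 was lower (Mmrn1), and their median log2 fold change was -0.47. The defining lymphatic factor Prox1 averaged 0.719 CPM in controls and 0.434 CPM in KO libraries. The summed level was 60.9 to 77.8 CPM in control and 54.6 to 76.8 CPM in KO libraries. It came mostly from Lyve1 (mean 29.99 CPM in control and 28.94 in KO) and Pdpn (mean 32.79 and 33.93 CPM). Other cells express both genes too. Other cell types were also measured. Of 9 tested pericyte markers 0 passed, with sums of 186.2 to 245.7 CPM in control and 149.4 to 202.9 CPM in KO. All 9 had a lower KO mean, with a median log2 fold change of -0.35. Of 10 progenitor markers 4 were lower (Lum, Cd34, Pdgfra and Col1a1), with sums of 2812 to 3285 CPM in control and 2411 to 2832 CPM in KO. The KO mean was lower for 9 of these 10, with a median log2 fold change of -0.38. Of 12 macrophage markers 0 passed, with a median log2 fold change of -0.03 and sums of 1292 to 2258 CPM over all libraries. The part of these cell types in the receptor values was not tested.

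The kinases were also set against the blood endothelial markers of the same library, as a description of how their fall compared with that of the markers. Kdr stood at 29.2 ± 2.12 CPM per 1000 CPM of markers in control and 34.7 ± 4.43 in KO (SD, n = 5 each), with ranges of 26.1 to 31.4 and 31.2 to 42.3. Flt4 stood at 25.4 ± 1.52 in control and 25.5 ± 3.10 in KO, and Flt1 at 50.1 ± 13.7 in control and 75.8 ± 16.2 in KO, where KO 1 was highest at 97.2. In an edgeR fit with libraries scaled by these markers, the log2 fold change was 0.25 for Kdr (95% interval -0.03 to 0.52, adjusted p = 0.0811, quasi-likelihood test). For Flt4 it was 0.01 (95% interval -0.28 to 0.30, adjusted p = 0.947), and for Flt1 0.60 (95% interval 0.29 to 0.91, adjusted p = 0.000455, quasi-likelihood test of edgeR). On this scale 97.2% of all genes tested were higher and 0.035% lower, so these values say only how far each kinase fell relative to the markers, and most genes fell less than the markers or did not fall. With only Pecam1, Cdh5 and Tie1 as markers, Kdr was past the limit on the higher side (log2 fold change 0.42, adjusted p = 0.0166, quasi-likelihood test of edgeR).

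**Figure D5:**
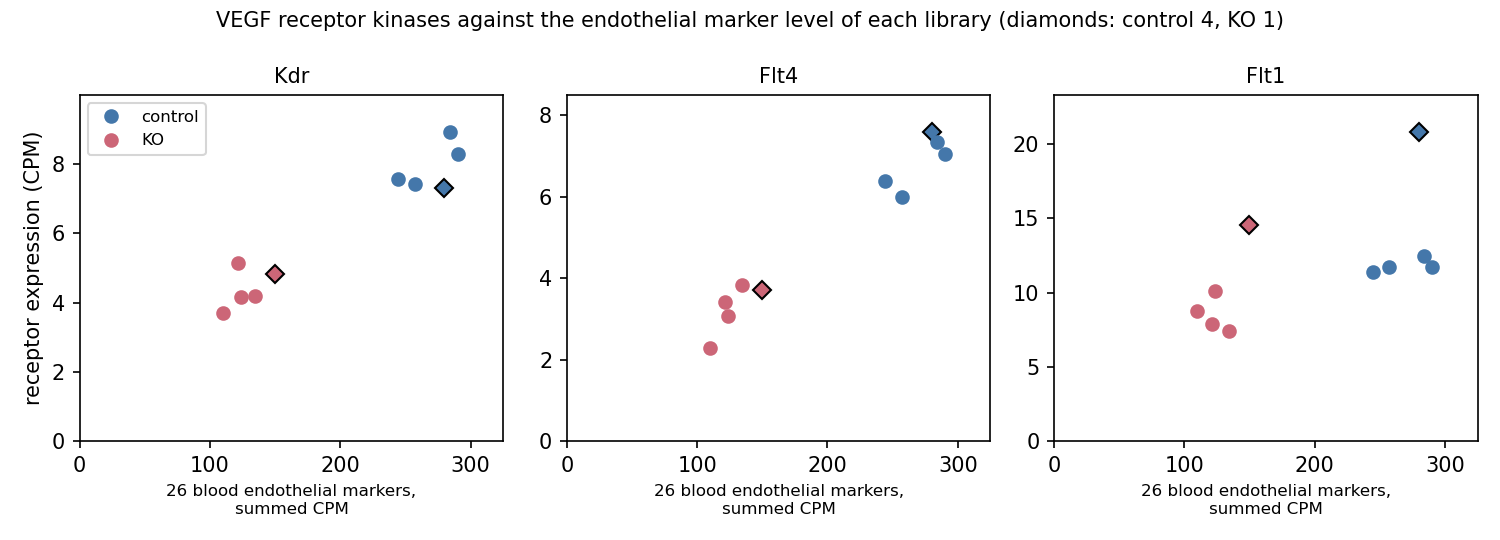
CPM of Kdr, Flt4 and Flt1 (vertical axes) against the summed CPM of 26 blood endothelial markers (horizontal axes) in each of the 10 libraries, all axes from 0. Control libraries sit at 244.5 to 290.3 and KO libraries at 109.6 to 149.5 CPM of markers, and the diamonds, control 4 and KO 1, lie above all other libraries in the Flt1 panel.

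The genes whose pattern over the 10 libraries was most like that of Kdr were found by the root mean square difference of centred log2 CPM among 12897 genes. They were Ecscr (0.126), Sh2d3c (0.138), Galnt5 (0.139), Myzap (0.14) and Uchl1 (0.145), where the median over the genes compared was 0.46. Of these, only Ecscr, an endothelial surface protein, is also in the blood endothelial list. Its CPM fell from 4.53 ± 0.36 in control to 2.57 ± 0.436 in KO (SD, n = 5 each). As the likeness uses all 10 libraries, it includes the difference between genotypes.

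The promoters of Kdr and Flt1 and, for contrast, of the ligand Vegfa are shown because a receptor that fell, a receptor that missed the limit and a ligand can be set side by side. ETS factors, which bind a GGAA core, act on many endothelial genes. The sequences are those of RefSeq on GRCm38.p6, from 250 bases before the annotated start to the start, read on the gene's strand with bases of GENCODE exons left out. Capitals mark GGAA or its reverse complement TTCC.
Kdr, chr5:75978459-75978705, minus strand: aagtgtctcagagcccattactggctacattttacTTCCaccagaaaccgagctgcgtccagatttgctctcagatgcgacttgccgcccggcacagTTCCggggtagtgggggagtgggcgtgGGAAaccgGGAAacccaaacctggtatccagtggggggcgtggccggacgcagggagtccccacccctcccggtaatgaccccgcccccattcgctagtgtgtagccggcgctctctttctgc
Flt1, chr5:147726012-147726261, minus strand: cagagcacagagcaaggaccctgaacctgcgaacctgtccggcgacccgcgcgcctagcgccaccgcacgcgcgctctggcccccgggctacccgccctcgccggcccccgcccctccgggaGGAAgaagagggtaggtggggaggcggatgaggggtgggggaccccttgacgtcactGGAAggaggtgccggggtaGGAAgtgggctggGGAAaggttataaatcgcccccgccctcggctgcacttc
Vegfa, chr17:46032378-46032627, minus strand: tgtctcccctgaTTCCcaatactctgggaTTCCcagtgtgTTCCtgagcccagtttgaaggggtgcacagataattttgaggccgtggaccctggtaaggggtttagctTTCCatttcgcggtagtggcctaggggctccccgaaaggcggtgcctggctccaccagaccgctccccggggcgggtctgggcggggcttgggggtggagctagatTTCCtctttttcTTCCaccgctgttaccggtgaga

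Counted on both strands, the GGAA core occurred 4 times in the Kdr window, 4 times in the Flt1 window and 6 times in the Vegfa window. It was present in 93.4% of 32851 promoters of the same 250 bases, so it does not set these genes apart. The longer CCGGAA, which contains the core, occurred 1 time for Kdr and 0 times for Flt1 and Vegfa, and 12.0% of promoters held it. ACGTG, a form of the core bound by hypoxia-inducible factors, occurred 0 times in these 3 windows and was present in 16.6% of promoters. Other forms of that core were not counted. A match is only a match of letters. The windows of Flt4 and Pgf were wholly exonic in GENCODE M21 and are not shown.

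Genes that control Vegfa by oxygen supply were followed next. Of 8 oxygen-sensing regulators and 12 hypoxia-induced genes, 0 passed the test in either direction. The median log2 fold change of the hypoxia-induced genes was 0.17, against 0.00 over all genes tested. The KO mean was higher for 11 of these 12 genes. Control 4 and KO 1 were the highest libraries of their groups for 12 of 12 hypoxia-induced genes and for 5 of 8 regulators, against 14.7% of all genes tested. Among the 10 members this was so for Vegfa, Vegfd, Pgf and Flt1. These libraries were singled out by values of members, so the members are not set against that share. For Vegfd the margin was small, at 158.9 CPM in control 4 against 157.2 in control 3, and 157.1 in KO 1 against 156.2 in KO 4. The summed hypoxia-induced genes were 6538 CPM in control 4 and 6802 CPM in KO 1, while the other controls had 4041 to 4778 and the other KO libraries 4790 to 5359 CPM. The most abundant gene of this list was Ldha, a subunit of lactate dehydrogenase, at 1978 ± 328 CPM in control and 2180 ± 299 CPM in KO (SD, n = 5 each). Egln3, a hypoxia-induced prolyl hydroxylase that marks HIF for breakdown, led the regulators, with 159 ± 96.2 CPM in control and 201 CPM in KO.

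With control 4 and KO 1 left out, 3 of the 12 hypoxia-induced genes and 1 of the 8 regulators passed the test as higher in KO, where 1.01% of all genes were higher. Bnip3, a mitophagy receptor, had a log2 fold change of 0.34 (adjusted p = 0.00712 by the quasi-likelihood test of edgeR). Ddit4, an inhibitor of mTOR complex 1, had 0.40 (adjusted p = 0.0376), Ndrg1, a stress-induced gene, had 0.36 (adjusted p = 0.0306), and Egln3 had 0.52 (adjusted p = 0.021, all by the quasi-likelihood test of edgeR). Vegfa did not pass in that fit, as given above. The libraries left out were the highest of their groups for these same genes, so the choice of libraries is not independent of the values compared. These genes were named after their values were seen.

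The next lists hold genes that mature the ligands or share the co-receptors. Of 7 tested genes that process VEGF-C and VEGF-D, 0 passed, and the most abundant, the protease Ctsd, averaged 791 ± 48.9 CPM in controls and 772 CPM in KO libraries. Without control 4 and KO 1, Ccbe1, a cofactor of VEGF-C cleavage, was higher in KO (log2 fold change 0.61, adjusted p = 0.0342 by the quasi-likelihood test of edgeR); it was named after its values were seen. Of 12 class 3 semaphorins and plexins, 10 had a lower KO mean. The median log2 fold change of the list was -0.10, against 0.00 over all genes tested. Past the limit 1 was lower, where 1.86% of all genes tested were lower. This gene, Sema3f, a ligand of Nrp2 that repels endothelium, fell from 11.4 ± 1.21 to 5.80 CPM (log2 fold change -0.97, SE 0.124, adjusted p = 0.000957, same test). Its groups did not overlap, and 2.66% of the genes tested were lower in KO without overlap. Plxna1, the most abundant of the list, stood at 97.4 CPM in both groups.

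Of 18 receptor partners and trafficking genes, 3 were lower and 0 higher, against 1.86% of all genes lower, and 2 of the 3 are blood endothelial markers. Cdh5, the endothelial cadherin that binds VEGFR2, fell from 53.1 ± 5.11 to 22.1 CPM (log2 fold change -1.27, adjusted p = 5.30e-05 by the quasi-likelihood test of edgeR). Itgb3, an integrin subunit that pairs with VEGFR2, fell from 30.9 ± 1.63 to 16.6 CPM (log2 fold change -0.90), and Ptprb, the endothelial phosphatase VE-PTP, fell from 6.39 ± 1.57 to 2.75 CPM (log2 fold change -1.22). The Ptprb value rests on 34 to 181 counts a library. The markers are Cdh5 and Ptprb. The most abundant of this list, the ubiquitin ligase Nedd4, stood at 1567 ± 121 CPM in control and 1580 CPM in KO.

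Below the receptors, 0 of 29 tested signalling genes passed in either direction, and their median log2 fold change was 0.00. Sh2d2a, which encodes an adaptor of VEGFR2, was at 0 counts in all 10 libraries. Cdc42, the most abundant, stood at 418 ± 14.5 CPM in control and 420 CPM in KO. Such genes are used by most cell types.

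Among 14 tested genes that VEGF induces in endothelium, 3 were lower and 0 higher, where 1.86% of all genes tested were lower and 0.308% higher. Their median log2 fold change was -0.25. Angpt2, an antagonist of Tie2 released by sprouting endothelium, fell from 36.9 ± 5.19 to 16.6 CPM (log2 fold change -1.15, SE 0.137, adjusted p = 0.000607 by the quasi-likelihood test of edgeR). Esm1, a proteoglycan of tip cells, fell from 3.53 ± 0.793 to 0.981 CPM (log2 fold change -1.84), and Dll4, a Notch ligand of tip cells, fell from 5.87 ± 1.44 to 2.09 CPM (log2 fold change -1.49). These values rest on only 13 to 96 counts a library for Esm1 and 35 to 159 for Dll4. Apln, a tip cell peptide and the most abundant of the list, measured 47.4 ± 22.8 CPM in controls and 39.0 CPM in KO, with an adjusted p of 0.808 (quasi-likelihood test of edgeR). The list's summed level was highest in control 4 (253.1 CPM) among controls and in KO 1 (203.5 CPM) among KO libraries. The 26 blood endothelial markers had a median log2 fold change of -1.22. For Angpt2, Esm1 and Dll4 too, fewer endothelial cells and less transcript per cell cannot be told apart in bulk RNA.

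Other angiogenic factors and inhibitors were measured as neighbours of the ligands. Of 12 other angiogenic factors 2 were lower: Ccn2, a matrix-bound factor, fell from 20.2 ± 4.38 to 12.3 CPM (log2 fold change -0.72, adjusted p = 0.0177, quasi-likelihood test of edgeR), and Pdgfb, which recruits pericytes, from 4.55 ± 0.865 to 2.17 CPM (log2 fold change -1.07, adjusted p = 0.0184, same test). In both the groups overlapped, and the calls did not hold in every alternative. Pdgfb rests on 33 to 122 counts a library. Ccn2 passed in 12 of 18 alternatives and Pdgfb in 11 of 18. Both were lost with the replicate block and without control 3, control 5, KO 2, KO 4 or KO 5, and Pdgfb also without KO 3, with adjusted p of up to 0.0656 for Ccn2 and 0.0745 for Pdgfb (quasi-likelihood test of edgeR). Angptl4, the lipoprotein lipase inhibitor and most abundant of this list, stood at 884 ± 26.5 CPM in control and 891 CPM in KO. Of 10 secreted angiogenesis inhibitors, 1 was lower: Col18a1, the precursor of endostatin, fell from 522 ± 23.5 to 426 CPM (log2 fold change -0.29, adjusted p = 0.00651, quasi-likelihood test of edgeR), with no overlap, as for 2.66% of the genes tested. Sparc, the most abundant, measured 3868 ± 353 CPM in controls and 3434 CPM in KO, and its adjusted p of 0.309 missed the limit. In all, 10 of 121 tested genes of the pathway lists were lower (8.26%, against 1.86% of all genes tested) and 0 higher with all 10 libraries. Cdh5 and Ptprb among them are also blood endothelial markers, and Angpt2, Esm1 and Dll4 come from the list of VEGF-responsive endothelial genes. The lists of signalling, hypoxia-induced, oxygen-sensing and processing genes gave 0 of 29, 0 of 12, 0 of 8 and 0 of 7. The part of the endothelial fall in the 8.26% was not tested.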

How the data were processed

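The authors built RNA-seq libraries from total RNA (SMARTer, Nextera XT), aligned the read pairs with STAR on GRCm38.p6, assigned them to genes with featureCounts and deposited raw counts for 56748 genes. The labels name mm10. The annotation release and strand setting were not given in the sources used here, so overlapping genes may share fragments. Genes were positioned in GENCODE M21 (4675 identifiers had no position there).

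Low genes were dropped by filterByExpr of edgeR 4.0.16 (R 4.3.3) with a minimum count of 10. After TMM scaling, KO was tested against control without pairing by the quasi-likelihood test with Benjamini-Hochberg adjustment over all genes tested and a limit of 0.05. Log2 CPM used a prior count of 2. TPM used exon lengths of GENCODE M21. The members and gene lists were chosen with earlier results of these data known. Genes named were all members and, in each pathway list, up to 4 with the smallest p past the limit and the most abundant, besides the 5 genes most like Kdr. The alternatives were DESeq2 1.42.0, limma voom 3.58.1 with quality weights, RLE and upper quartile factors, other count filters, a replicate block, and libraries left out. Exact permutation tests were 2-sided. Scripts were tested on simulated counts. Depth was 18949106 to 26237825 counts a library, so precision is lowest for low genes. RefSeq promoters were matched for all 10 members (12 entries).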

Additional observations from a re-analysis of the deposited data

Results flagged for a closer look

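In the following results the highest or lowest library of a group of 5 lay further from the nearest of the others than Dixon's 95% value allows. Of 52 groups of values examined, 7 were marked this way, and chance alone would mark about 2.6. Vegfa was 430 CPM in control 4, Flt1 was 20.8 CPM in control 4 and Pgf was 21.2 CPM in KO 1. Summed lists stood apart in the same libraries: the oxygen-sensing regulators at 1041 CPM in control 4, and the hypoxia-induced genes at 6802 CPM and the VEGF-responsive endothelial genes at 203.5 CPM in KO 1. The summed pericyte and smooth muscle markers were low in KO 3, at 149.4 CPM.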

How the results depend on the processing

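Kdr and Flt4 stayed lower and past the limit in 18 of 18 alternatives (log2 fold change -0.90 to -0.79 for Kdr and -1.14 to -0.97 for Flt4), Flt1 passed in 1 of 18, with control 4 and KO 1 both left out, and 0 of 5 ligands and neither neuropilin passed in any. The log2 fold change of Vegfa was -0.01 without KO 1 and 0.42 without control 4, and that of Nrp2 was 0.00 without control 2 and 0.09 without control 4. Relative to endothelial markers, Flt4 changed sign without control 2 (-0.02), control 3 (-0.01), KO 3 (-0.04) and KO 5 (-0.03), and was highest, among fits without 1 library, at 0.07 without KO 4, and 2 kinases in place of 1 passed with 3 markers only.

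Over all genes, 265 were lower and 44 higher. Higher genes numbered 125 with DESeq2, 111 with limma voom, 21 with the replicate block and 145 without control 4 and KO 1. Leaving out single libraries, the counts ran from 164 (without KO 2) to 323 lower and from 19 (without control 5) to 119 (without control 4) higher. Pathway genes past the limit numbered 16 in place of 10 without control 4 and KO 1, of which 5 were higher; the other alternatives gave 8 to 15.

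Of the 6 ratios, 1 passed. With the replicate block 0 passed, but 5 pairs cannot give an exact p below 0.0625, and with each library left out 0 to 2 passed. The adjusted p of Nrp1 to Kdr, 0.0952 in 8 of those 10, is the smallest a lone ratio can reach with 9 libraries. Same-numbered libraries had correlations of -0.251 to 0.263, so the numbers were not taken to pair them; with the block, 193 genes were lower and 21 higher, and Kdr and Flt4 passed. The causes of these differences were not tested. Kdr and Flt4 rest on only 50 to 211 counts a library.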
